A study of Mus musculus with 40 samples.

Results

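Dio2, the genes for the nuclear thyroid hormone receptors (Thra and Thrb) and Hr, a receptor corepressor, were described in mouse cortex after repeated head impact. Every row of the deposited table whose RefSeq transcript maps to these 4 symbols was taken. That gave 5 of the 6831 transcripts in the table, with Thra present as 2 transcripts and the other genes as 1 each. The genes were chosen from earlier results on these same libraries, so their values are given as a description with no test of their own.

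The libraries came from the cortex of 40 male C57BL/6 mice aged 12 weeks. Each mouse received an intraperitoneal injection of saline or memantine, which blocks NMDA receptors for glutamate, 1 h before each daily session. In a session the mouse was anesthetized with isoflurane and either given a series of high-frequency head impacts (HF-HI) or handled as a sham without impact. RNA was taken 24 h after the last session. Sham and HF-HI mice under either injection made 4 groups of 10 libraries, named by drug and procedure. All groups therefore shared the repeated anesthesia and the injections, and the sham groups are not untouched mice. The libraries are of bulk cortex tissue, so fewer cells of a type and less RNA per cell cannot be told apart.

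The thyroid gland releases mostly thyroxine (T4), a prohormone with little affinity for the receptors. In the brain, Dio2 encodes the type 2 deiodinase, the enzyme that removes an iodine from the outer ring of T4 to give the active hormone T3, and in cortex this enzyme is made mainly by astrocytes. T3 reaches neurons and oligodendrocytes and binds receptors encoded by Thra and Thrb, which sit on DNA as partners of retinoid X receptors and repress target genes without hormone and activate them with it. Thra also yields the variant α2, whose changed carboxyl end does not bind T3. Hr encodes the hairless protein, a histone demethylase and corepressor that binds thyroid hormone receptors and is itself a known T3-responsive gene of brain.

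Positions, exons and lengths of the members are those of the GENCODE models matched to their RefSeq rows on build GRCm38 (mm10). The Dio2 transcript (NM_010050) lies on the minus strand of chromosome 12 at chr12:90724552-90738438, with 2 exons and 798 coding bases for 266 residues. The RefSeq span of the gene runs on to 90739038. The deiodinase is a selenoprotein, and its coding sequence holds in-frame TGA codons that are read as selenocysteine and not as a stop. They stand at codons 130 and 263, and the first of them encodes the catalytic residue. The stretches are shown 5′ to 3′ with the TGA codon in capitals, because they are the feature that ties Dio2 to the selenoprotein genes described later.
Dio2 codon 130, chr12:90729793-90729855, minus strand: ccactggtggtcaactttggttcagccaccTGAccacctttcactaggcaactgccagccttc
Dio2 codon 263, chr12:90729415-90729456, minus strand: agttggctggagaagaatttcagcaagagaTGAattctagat

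The Thra rows are the α2 form (NM_001313983, chr11:98741811-98769006, plus strand, 492 residues) and the α1 form (NM_178060, chr11:98741873-98765111, plus strand, 410 residues). They share 1110 coding bases, or 370 codons, from the start codon on. After that point α1 reads on for 120 bases of its own and α2 splices to a last exon that adds 366 coding bases. The last 30 shared bases are shown in lower case and the first 30 bases of each form's own coding sequence in capitals, since only reads that reach the capitals, or the untranslated ends, can tell the rows apart.
Thra α2, shared part ending at chr11:98764405 and own part starting at 98768157: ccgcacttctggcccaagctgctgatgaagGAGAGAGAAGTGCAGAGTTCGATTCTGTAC
Thra α1, chr11:98764376-98764435: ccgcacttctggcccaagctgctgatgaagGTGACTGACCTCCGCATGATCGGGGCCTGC

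Over whole transcripts the Thra rows share 1540 exonic bases, which is 62.8% of α2 and 68.6% of α1. The counting program divided shared reads between them by estimate, so the level of each Thra row is less certain than their sum. The last exon of α2 also overlaps, by 263 bases, the last exon of Nr1d1 on the opposite strand, and all 263 bases are α2 coding sequence. The library kit kept strand, but no source used here states whether the counting did. Thrb (NM_001113417) lies on the plus strand at chr14:17660896-18036559 with 10 exons and encodes the β1 form of 461 residues. Hr (NM_021877) lies on the plus strand at chr14:70554056-70573548 with 20 exons and encodes 1182 residues.

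Levels are normalized read counts recovered from the deposited log2-scale values, with summed counts of 13322404 to 17529644 per library. Excitatory markers of cortex were present in all groups, with a summed level of 13808 to 21083 over 6 transcripts. Striatal markers were present too (17553 to 33605 over 10 transcripts), and the choroid plexus gene Ttr ran from 74.5 to 22031. Some striatal markers are also expressed in cortex, and the part of other regions in the results was not tested. Under saline, 5 of the 10 striatal transcripts were lower in HF-HI than in sham at an unadjusted limma p under 0.05, where 9.53% of all transcripts passed. Under memantine 0 of the 10 passed, where 4.61% did.

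Dio2 was lower after head impact under saline and under memantine. In saline sham its normalized count ran from 1953 to 2821 with a median of 2336, and the mean was 2344 ± 262 (SD, n = 10). In saline HF-HI it ran from 1604 to 2316 with a median of 2014, and the mean was 2006 ± 218 (SD, n = 10). Every one of the 10 saline HF-HI libraries lay below the saline sham mean, 3 lay below the lowest saline sham library, and 5 saline sham libraries lay above the highest HF-HI library. The groups overlapped between 1953 and 2316.

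The memantine groups held the same pattern at a slightly lower level. Dio2 ran from 1937 to 2558 in memantine sham, with a median of 2119 and a mean of 2199 ± 219 (SD, n = 10). In memantine HF-HI it ran from 1667 to 2010, with a median of 1928 and a mean of 1881 ± 127 (SD, n = 10). All 10 memantine HF-HI libraries were below the memantine sham mean, 5 of them below the lowest sham library, and 8 sham libraries exceeded the highest HF-HI library.

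**Figure D1:**
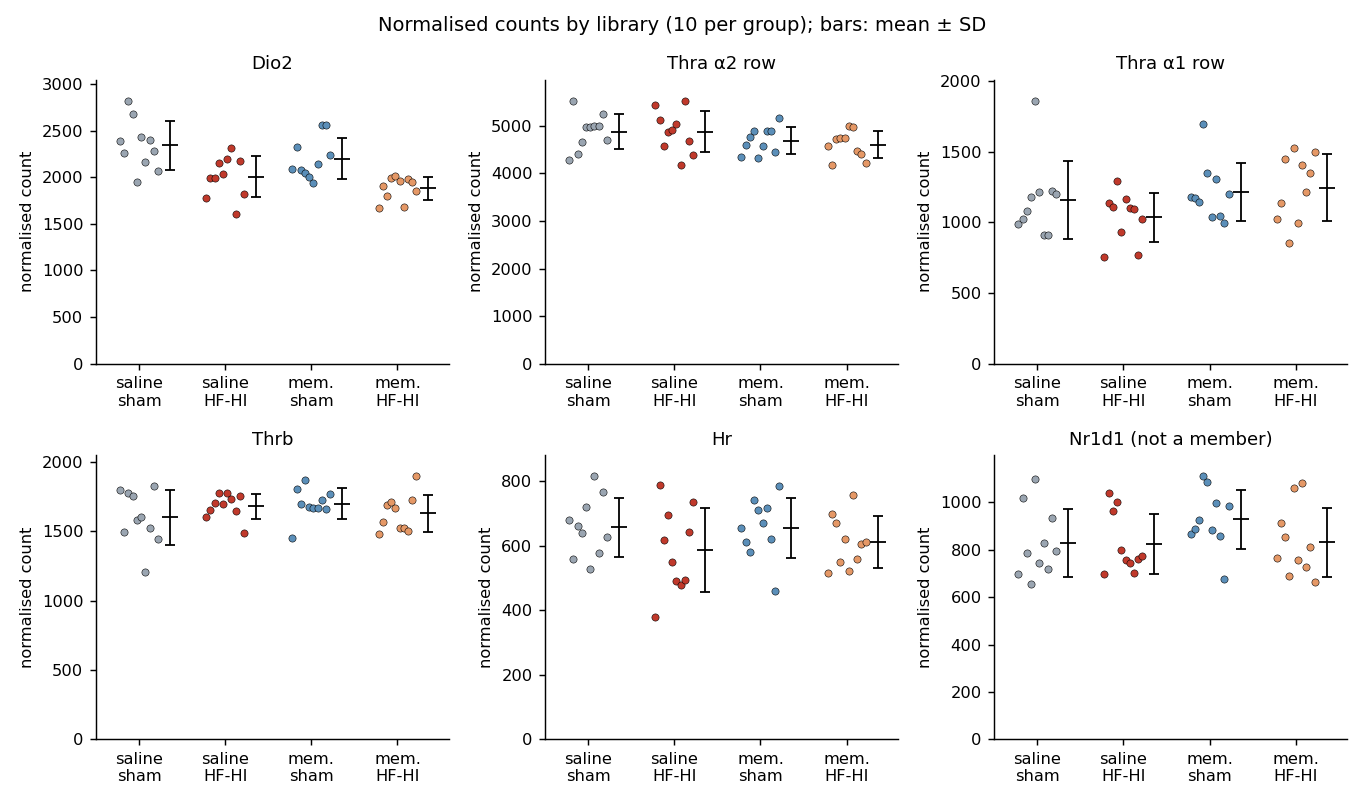
Normalized count (vertical axis) of the 5 member transcripts and of Nr1d1 in each of the 40 libraries, with 10 points per group and the mean ± SD as bars. Dio2 sits lower in both HF-HI groups than in the sham group of the same drug (means 2006 against 2344 and 1881 against 2199), whereas the groups of the other transcripts overlap over most of their range.

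The mean Dio2 count in HF-HI was 85.6% of the sham mean under saline and 85.6% under memantine. On the log2 count scale the change was -0.22 ± 0.06 (SE) under saline and -0.22 ± 0.06 under memantine. The arms share no library, but both errors come from the same fit. Dio2 was chosen with both changes known, so their likeness is not read as a repeat. On the deposited scale, which is compressed at this count, the same changes were -0.12 ± 0.03 and -0.12 ± 0.03. The interaction of impact and drug, the change under memantine less that under saline, was 0.003 ± 0.089 on the log2 count scale, and its standard error is not small against the change itself. The spread of Dio2 within groups was a coefficient of variation of 6.73% to 11.2%, against 2.07% to 2.31% from counting error alone.

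Dio2 was the 1 of 5 member transcripts with an unadjusted p under 0.05 in limma's fit of HF-HI against sham under saline, where 9.53% of all transcripts passed. It was likewise the 1 of 5 under memantine, where 4.61% passed. At an adjusted p under 0.1 the members passed in 0 of 5 cases in either contrast, where 0.205% and 0.0146% of the table passed. The genes were selected with these contrasts known, so nothing is read from those counts.

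Between drugs the Dio2 difference was smaller than the impact difference and within the overlap of the groups. Memantine HF-HI differed from saline HF-HI by -0.09 ± 0.06 (SE) and memantine sham from saline sham by -0.09 ± 0.06 on the log2 count scale. The sham difference was -0.06 without saline sham replicate 3. In HF-HI mice 9 of 10 memantine libraries lay below the saline mean, and in sham mice 8 of 10 did. These drug contrasts share their groups with the impact contrasts, and the values are set side by side only.

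**Figure D2:**
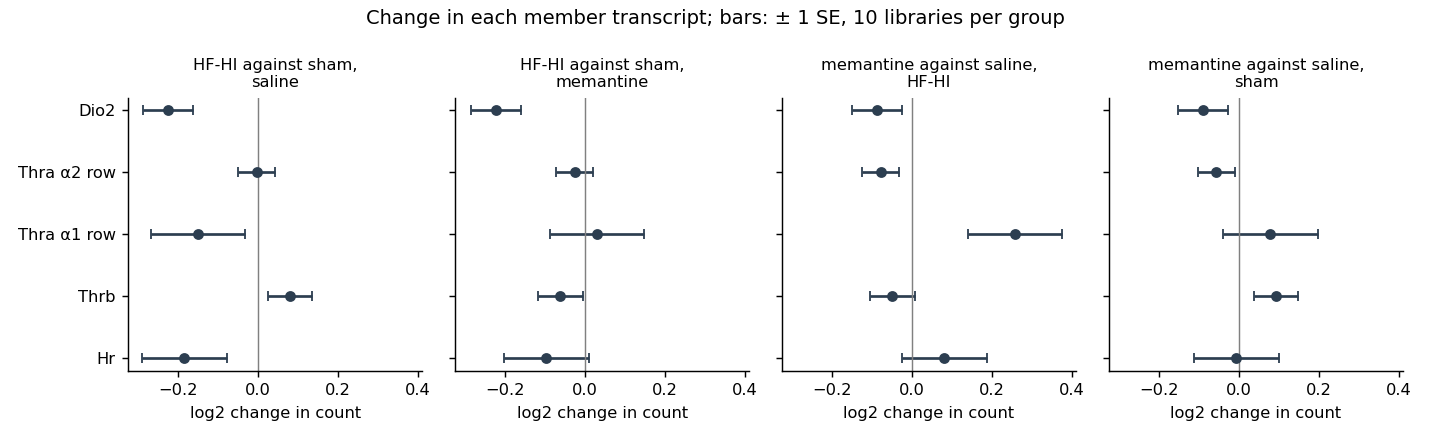
Change in log2 count (horizontal axis, bars ± 1 SE, 10 libraries per group) of each member transcript in the 4 two-group contrasts. Dio2 lies at -0.22 in both impact contrasts and the Thra α2 row near 0 (-0.003 and -0.03), with the Thra α1 row at 0.26 ± 0.12 for memantine against saline in HF-HI mice.

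Because Dio2 RNA is carried mainly by astrocytes, it was set against 13 transcripts of 9 astrocyte marker genes in the same libraries. The summed marker count was nearly level, with means of 117900 ± 4992 in sham and 119000 ± 2536 in HF-HI under saline, and of 119800 ± 1447 in sham and 118400 ± 3189 in HF-HI under memantine (SD, n = 10 each). The largest part of that sum came from Slc1a2, the main glutamate transporter of astrocytes. Per 1000 marker counts, Dio2 was 19.9 ± 2.25 in saline sham and 16.8 ± 1.55 in saline HF-HI. Under memantine it was 18.4 ± 1.81 in sham and 15.9 ± 1.10 in HF-HI. All 10 HF-HI libraries were below the sham mean of this ratio under either drug. With the marker sum nearly level, the ratio largely restates the Dio2 counts, and the part of astrocyte number was not tested. The mean ratio changed by -15.4% under saline and -13.4% under memantine, and the mean count by -14.4% and -14.4%.

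Of the 13 astrocyte transcripts, 1 passed under saline, upward, where 9.53% of all transcripts passed. Under memantine 3 passed, 2 higher and 1 lower, where 4.61% passed. Gfap, the intermediate filament of reactive astrocytes, was the transcript that rose under saline, by 0.29 ± 0.11 (SE, log2 count, limma, unadjusted p = 0.0112, adjusted p = 0.374), and it rose under memantine by 0.45 ± 0.11 (unadjusted p = 0.000257, adjusted p = 0.351). Gja1, the gap junction protein connexin 43, rose under memantine by 0.10 ± 0.04, and Ntsr2 fell by 0.11 there (adjusted p = 0.968 in limma for both). Dio2 thus stood lower in the groups in which Gfap stood higher. Within groups, the mean of the astrocyte list, unweighted so that rows of wide spread count most, had r = -0.01 with Dio2 over the 40 libraries. Tanycytes, the other well-known source of the deiodinase in brain, could not be followed. Of 6 markers listed for them and for ependyma, only Crym was in the table. It is also on the list of hormone transport and binding genes used below, and its source in these libraries was not tested. Its groups overlapped (394.7 to 930.5 in saline HF-HI and 521.7 to 879.8 in saline sham).

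Some markers of other cell types and regions varied with Dio2 within groups or passed in an impact contrast. Within groups, r with Dio2 was -0.50 for the 1 hippocampal marker transcript in the table, -0.41 for the mean of 4 interneuron transcripts and 0.22 for that of 6 excitatory transcripts, and between -0.19 and -0.04 for the remaining lists. Of the 4 interneuron transcripts 3 passed under saline, 1 higher and 2 lower, where 9.53% of all transcripts passed. Their summed counts there were 11824 to 14744 in HF-HI and 12604 to 15777 in sham. Under memantine 0 of the 4 passed, where 4.61% of all did. Of 5 microglia transcripts 1 passed, upward, in either impact contrast, beside the same shares of 9.53% and 4.61%. The part of these cells in the Dio2 values was not tested.

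Changes with a covariate or with a library left out were computed on the deposited scale and rescaled to units of log2 count, where the Dio2 change was -0.23 under saline and -0.22 under memantine. With the mean of the astrocyte markers as a covariate it was -0.22 and -0.22. With the mean of the striatal markers it was -0.24 and -0.22. The change was about as large with either covariate, while the median log2 count change of the 10 striatal transcripts was itself -0.22 under saline and -0.05 under memantine. Each covariate is an unweighted mean of rows, so rows of wide spread weigh most in it. The Slc1a2 row NM_001077515, for example, changed by 1.29 ± 0.89 under saline and -1.03 ± 0.89 under memantine (SE, log2 count). The part of astrocyte number in the Dio2 change was not tested. Leaving out each library in turn kept the change between -0.26 and -0.19 under saline and between -0.24 and -0.19 under memantine.

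**Figure D3:**
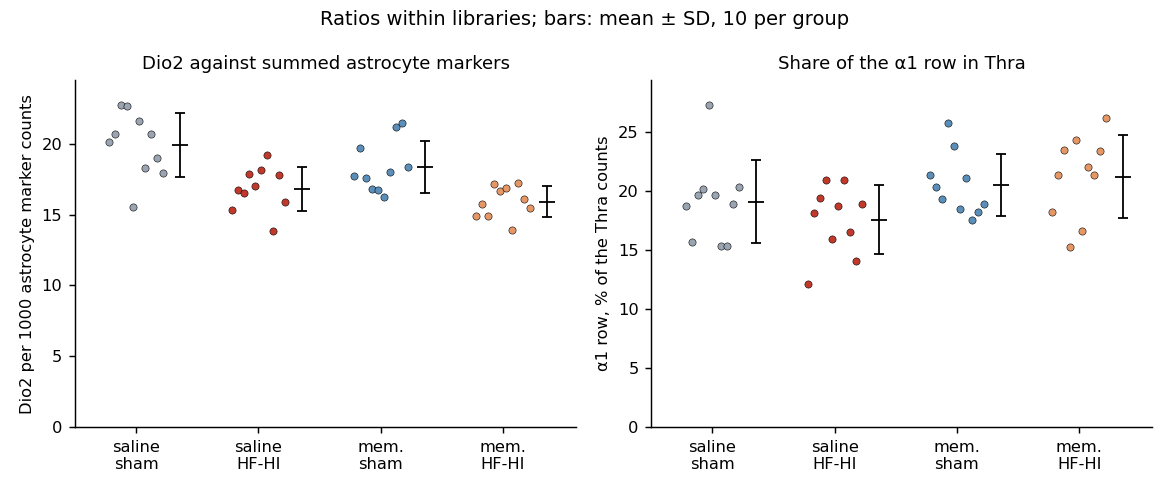
Left, Dio2 per 1000 counts of the summed astrocyte markers. Right, share of the α1 row in the summed Thra counts, in percent. Points are libraries, 10 per group, with the mean ± SD as bars. The Dio2 ratio is lower in HF-HI than in sham under saline (16.8 against 19.9) and memantine (15.9 against 18.4), while the α1 shares overlap between all groups.

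Thra, which encodes the receptor form that predominates in brain, was the most abundant member and its α2 row moved little with impact. The α2 count ran from 4281 to 5525 in saline sham (mean 4876 ± 373, SD, n = 10) and from 4178 to 5523 in saline HF-HI (mean 4872 ± 432). In memantine sham it ran from 4316 to 5171 (mean 4686 ± 278) and in memantine HF-HI from 4184 to 4992 (mean 4606 ± 286). The impact changes were -0.003 ± 0.047 under saline and -0.03 ± 0.05 under memantine (SE, log2 count), each smaller than its error. Memantine groups lay lower than saline groups by -0.08 ± 0.05 in HF-HI and -0.06 ± 0.05 in sham.

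The α1 row, the T3-binding form, was lower in count and more variable. It ran from 908 to 1861 in saline sham (median 1129, mean 1159 ± 275, SD, n = 10) and from 752 to 1291 in saline HF-HI (median 1100, mean 1038 ± 173). In memantine sham it ran from 992 to 1697 (median 1178, mean 1213 ± 205) and in memantine HF-HI from 855 to 1529 (median 1282, mean 1246 ± 235). Its coefficient of variation within groups was 16.7% to 23.7%, against counting errors of 2.83% to 3.11%. The highest saline sham library, replicate 5, stood well apart from the other 9, which lay between 908 and 1225.

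The impact change of α1 was -0.15 ± 0.12 under saline and 0.03 ± 0.12 under memantine (SE, log2 count), and without saline sham replicate 5 the first of these was -0.06. With the striatal covariate it was -0.11. Memantine HF-HI was above saline HF-HI by 0.26 ± 0.12, with 7 of 10 libraries above the saline mean and 5 above the highest saline library. With the striatal covariate this difference was 0.23. The α1 row was the 1 of 5 members to pass an unadjusted p under 0.05 in that contrast, where 3.91% of the table passed, and at an adjusted p under 0.1 it was 0 of 5 (0% of the table). With the Thra rows summed, the memantine HF-HI mean was 5852 ± 343 and the saline HF-HI mean 5909 ± 444, so the difference of the α1 row is not present in the gene as a whole (log2 ratio of the means -0.01). In sham mice the summed means were 5899 ± 379 with memantine and 6036 ± 481 with saline.

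The α1 row took 19.1% ± 3.49 of the summed Thra counts in sham and 17.6% ± 2.89 in HF-HI under saline, and 20.5% ± 2.62 in sham and 21.2% ± 3.50 in HF-HI under memantine (SD, n = 10 each). Single libraries ran from 12.2% to 27.3%, and every pair of groups overlapped. Per unit length the α2 form exceeded the α1 form by a mean factor of 3.52 to 4.44 in the 4 groups. Within groups the rows did not follow each other (r = -0.01 over 40 libraries).

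Thrb, the β1 receptor, had a coefficient of variation of 8.38% over all 40 libraries. Within groups Thrb had 5.37% to 12.2%, highest in saline sham, against 2.43% to 2.50% from counting error. Its count ran from 1202 to 1825 in saline sham (median 1591, mean 1599 ± 195, SD, n = 10) and from 1484 to 1775 in saline HF-HI (median 1699, mean 1681 ± 90.2). In memantine sham it ran from 1449 to 1868 (median 1683, mean 1697 ± 111) and in memantine HF-HI from 1481 to 1894 (median 1617, mean 1628 ± 132). The impact change was 0.08 ± 0.06 under saline and -0.06 ± 0.06 under memantine (SE, log2 count). The signs were opposite, and the difference between them was -0.14 ± 0.08. Of the 10 saline HF-HI libraries 9 were above the saline sham mean, and of the 10 memantine HF-HI libraries 7 were below the memantine sham mean. Without the saline sham library with the lowest Thrb value (replicate 7) the saline change was 0.03.

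Hr was the least abundant member, with a coefficient of variation within groups of 13.0% to 22.2%, against 3.90% to 4.13% from counting error. It ran from 528 to 815 in saline sham (median 650.0, mean 658 ± 91.5, SD, n = 10) and from 379 to 788 in saline HF-HI (median 584, mean 587 ± 130). In memantine sham it ran from 459 to 786 (median 663, mean 656 ± 94.0) and in memantine HF-HI from 515 to 758 (median 609, mean 611 ± 79.7). In each drug arm 7 of 10 HF-HI libraries lay below the sham mean and 3 above it. The change was -0.18 ± 0.11 under saline and -0.10 ± 0.11 under memantine (SE, log2 count), the same sign as Dio2 but under 2 standard errors. Between drugs Hr differed by 0.08 ± 0.11 in HF-HI and by -0.007 ± 0.106 in sham mice.

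The Hr change under saline rested partly on single libraries. On the rescaled values it was -0.17, but -0.11 without saline HF-HI replicate 1, the lowest Hr library, and -0.22 without replicate 2, the highest. The drug difference in HF-HI mice was 0.07 on that scale, but 0.009 without replicate 1 and 0.12 without replicate 2. With the mean of the striatal markers, themselves lower after impact under saline, as a covariate, the Hr change was -0.24 under saline and -0.12 under memantine. In memantine against saline among sham mice and in the interaction, the members passed an unadjusted p under 0.05 in 0 of 5 cases each, where 7.51% and 3.73% of all transcripts passed, and an adjusted p under 0.1 in 0 of 5 cases (0.0293% and 0% of the table).

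Per kilobase of transcript, Thra α2 was the highest and Hr the lowest member in every group. The mean over the 40 libraries was 1941 ± 145 normalized counts per kb for Thra α2, 518 ± 103 for Thra α1, 364 ± 30.5 for Thrb, 362 ± 46.7 for Dio2 and 114 ± 18.5 for Hr (SD). Among the 6698 transcripts with a known length, these levels lie at the percentiles 94.8, 68.4, 53.2, 52.9 and 4.36. The α2 and Hr rows stood clear of the rest in all libraries. The lowest α1 library (335) lay within the range of Thrb (265 to 418) and Dio2 (276 to 485), so the neighbors from α1 to Dio2 overlap.

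Per kilobase and under saline, Dio2 stood above Thrb in sham and below it in HF-HI. This order rests on the annotated length used for each transcript (5.815 kb for Dio2 and 4.532 kb for Thrb). By normalized count the Dio2 mean exceeded the Thrb mean in every group, with 2006 against 1681 in saline HF-HI. In saline sham Dio2 was at 403 ± 45.1 counts per kb and Thrb at 353 ± 43.1, with Dio2 the higher of the pair in 8 of 10 libraries. In saline HF-HI the means were 345 ± 37.6 and 371 ± 19.9, and Dio2 was the higher in 1 of 10 libraries. In memantine sham they were 378 ± 37.7 and 374 ± 24.5 (Dio2 higher in 5 of 10, a mean difference of 3.66 ± 42.1, so no order was seen), and in memantine HF-HI 324 ± 21.8 and 359 ± 29.1 (2 of 10).

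**Figure D4:**
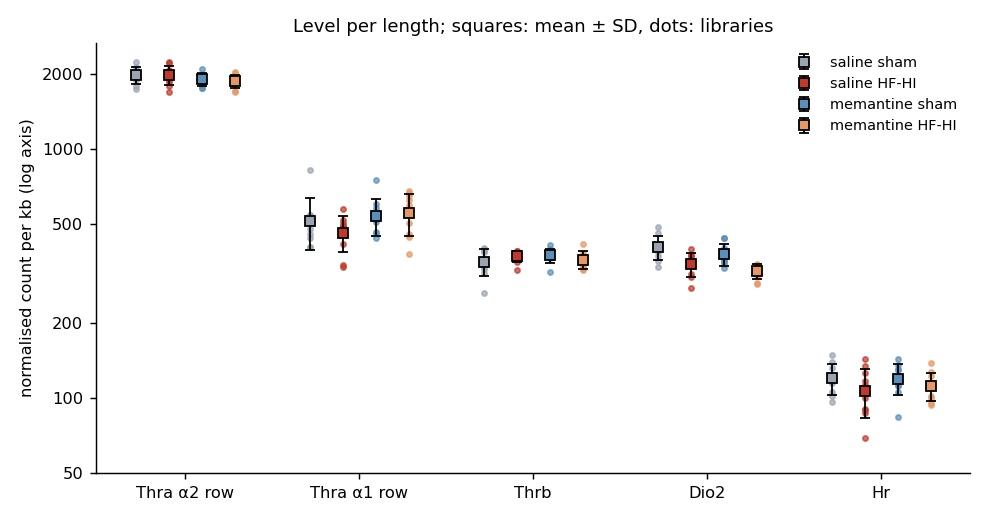
Normalized count per kilobase (log axis) of the member transcripts in the 4 groups. Squares are means, bars SD and dots single libraries, 10 per group. Thra α2 lies near 1941, Hr near 114, and under saline Dio2 crosses Thrb between sham (403 against 353) and HF-HI (345 against 371). By normalized count, not divided by length, the Dio2 mean is above the Thrb mean in every group.

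After group means were removed, the members did not form a single block across the 40 libraries. Depth differed between libraries and is common to all transcripts of a library, and base composition was not measured. Dio2 followed Thrb (r = 0.42) and ran against Thra α2 (r = -0.32). Hr followed Thra α1 (r = 0.39) and had no relation to Dio2 beyond r = -0.19. The tightest pair among these rows was Hr with Nr1d1 (r = 0.62), followed by Thra α1 with Nr1d1 (r = 0.59).

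The transcripts of other genes most like the most abundant row of each member gene were ranked by Pearson's r of the deposited values. The r was taken over the 40 libraries, with group means removed. For Dio2 they were Gpr22 (r = 0.68), an orphan receptor, Ppp1r3c (0.66), a glycogen-targeting subunit of protein phosphatase 1, Fut9 (0.66), a fucosyltransferase, a transcript without a symbol (NM_001007574, 0.66) and Chd1 (0.65), a chromatin remodeler. Their impact changes under saline had both signs, with 0.13 ± 0.04 for Fut9, 0.14 ± 0.04 for Chd1, -0.02 ± 0.05 for Gpr22 and -0.13 ± 0.05 for Ppp1r3c (SE, log2 count).

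For Thra α2 the nearest were Icam5 (r = 0.76), a telencephalic adhesion molecule of dendrites, Rgs14 (0.71), Sowaha (0.65), Col6a1 (0.63), itself on the list of hormone-responsive genes, and Ddn (0.63), which encodes dendrin. For Thrb they were Adcy2 (0.64), an adenylyl cyclase, Hivep2 (0.64), Lrrc4c (0.63), Tppp (0.61) and Kif3b (0.60). For Hr the values were higher, with Extl3 at 0.87, Cntnap1 at 0.86, Hapln4 at 0.83, Coro2b at 0.83 and Scrt1 at 0.83. The 5 values for Hr exceed the highest found for the Dio2, Thra α2 and Thrb rows. The Thra α1 row was not ranked.

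The rest of the pathway was followed with lists of genes for each step. Of 62 listed genes, 43 were in the table, with 57 transcripts. The other deiodinases, Dio1 and Dio3, the retinoid X receptors Rxra, Rxrb and Rxrg, and the transporter gene Slc16a10 were not among the transcripts analyzed here. Under saline, 4 of the 57 transcripts passed an unadjusted p under 0.05 in limma (7.02%, against 9.53% of the table), 3 higher and 1 lower after impact. Under memantine 2 passed (3.51%, against 4.61%), 1 higher and 1 lower. Between drugs, 2 passed in HF-HI mice (3.51%, against 3.91%) and 4 in sham mice (7.02%, against 7.51%), and the interaction gave 2 (3.51%, against 3.73%). At an adjusted p under 0.1 the lists gave 0 transcripts in each of the 5 contrasts. The median log2 count change over the 57 was -0.001 under saline and -0.02 under memantine, beside 0.0002 and -0.0006 for the whole table.

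**Figure D5:**
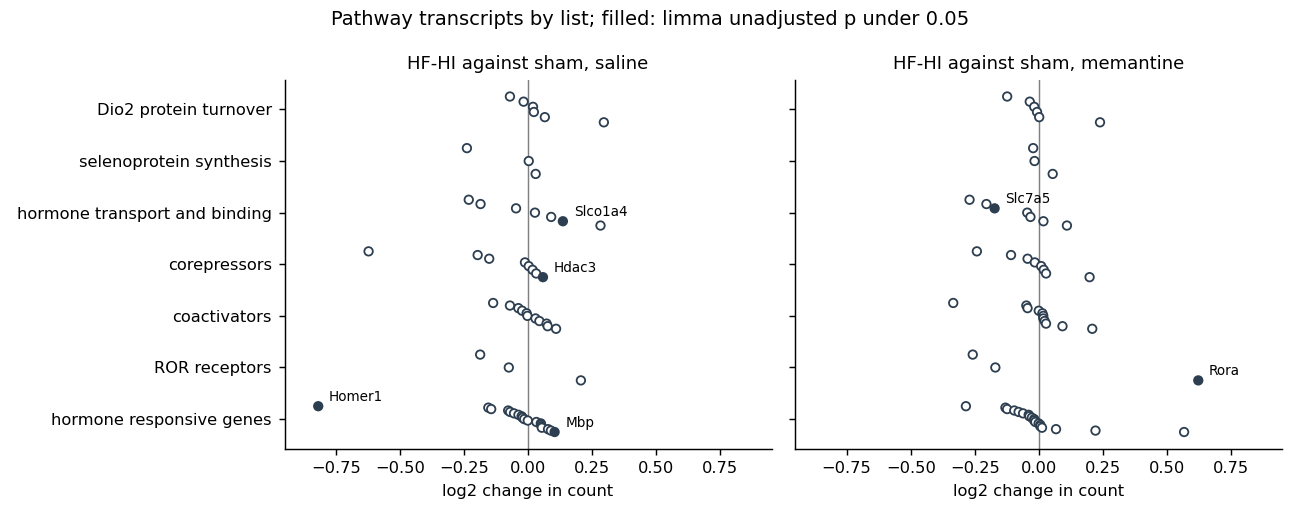
Change in log2 count after impact (horizontal axis) of the transcripts in each pathway list, under saline on the left and memantine on the right. Each circle is 1 transcript, and filled circles passed an unadjusted p under 0.05. Most circles lie near 0, with 4 of 57 filled under saline and 2 of 57 under memantine.

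Turnover of the Dio2 protein runs through ubiquitin ligases (Wsb1, Marchf6), a conjugating enzyme (Ube2j1) and the deubiquitinases Usp33 and Usp20. Of their 6 transcripts 0 passed in either impact contrast, where 9.53% and 4.61% of all transcripts passed. The most abundant, Marchf6, had a mean of 7804 counts and changed by 0.02 ± 0.02 under saline and -0.007 ± 0.019 under memantine (SE, log2 count). Usp33 (NM_133247) was higher with memantine in sham mice, 2927 ± 301 against 2559 ± 546 (SD, n = 10, unadjusted p = 0.034, adjusted p = 0.636). The selenoprotein group had 3 transcripts (Sephs2, Selenop, Lrp8) and 0 calls in any contrast, where 3.73% to 9.53% of all transcripts passed. Selenop, the selenium carrier, was at 3243 ± 274 in saline HF-HI and 3179 ± 288 in saline sham.

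Hormone transport and binding gave 1 call of 7 transcripts in each of 3 contrasts. Of all transcripts, 9.53% passed under saline, 4.61% under memantine and 3.91% between drugs in HF-HI mice. Slco1a4, an organic anion transporter of brain vessels that carries T4, rose with impact under saline from 1116 ± 63.4 to 1226 ± 66.1 (SD, n = 10, change 0.14 ± 0.06 SE, p = 0.033, adjusted p = 0.486), with 10 of 10 HF-HI libraries above the sham mean. It was lower in memantine HF-HI than in saline HF-HI, at 1129 ± 169 (p = 0.0446, adjusted p = 0.9995). Slc7a5, the light chain of an amino acid carrier that also moves thyroid hormone, fell with impact under memantine from 685 ± 57.7 to 611 ± 86.0 (p = 0.0249, adjusted p = 0.968). Ttr, the T4 carrier of choroid plexus and the most abundant of the list by mean (4227), varied too widely between libraries to be compared.

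Among the receptor partners, calls were as few. Of 8 corepressor transcripts 1 passed under saline and 0 under memantine, where 9.53% and 4.61% of all transcripts passed. Hdac3, the deacetylase of the corepressor complex, rose under saline from 1133 ± 45.1 to 1180 ± 60.9 (limma p = 0.0438, adjusted p = 0.508). The most abundant, Ncor1, changed by 0.02 ± 0.05. Of 11 coactivator transcripts, 0 passed in the impact contrasts, beside the same shares. Carm1, an arginine methyltransferase, was higher with memantine in sham mice, 704 ± 64.7 against 622 ± 75.5 (p = 0.0193, adjusted p = 0.616), and Ncoa1, the most abundant, changed by -0.005 ± 0.017 under saline.

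The hairless protein also binds the orphan receptors of the ROR family. Of the 2 Rora rows, the less abundant (NM_013646) was higher in memantine HF-HI, 1636 ± 565, than in memantine sham, 1115 ± 442 (p = 0.0334, adjusted p = 0.968), and than in saline HF-HI, 1053 ± 342 (p = 0.0205, adjusted p = 0.9995). Summed over both rows the memantine means were 4665 ± 861 and 4475 ± 1037 (p = 0.611). Rora is also on the list of thalamus markers, whose 4 transcripts summed to 4524 to 10017 in memantine HF-HI and 4077 to 10952 in memantine sham, and the part of thalamus in the result was not tested.

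The list of genes known to respond to thyroid hormone in cortex held 19 transcripts of 11 genes. Under saline 2 of the 19 passed in limma, 1 higher and 1 lower, where 9.53% of all transcripts passed. Under memantine 0 passed at an unadjusted p under 0.05, where 4.61% of all did. The best-known direct target, Klf9, a transcription factor, was chosen for mention after its values were seen. It was at 4395 ± 368 in saline sham and 4345 ± 271 in saline HF-HI, with 4384 ± 220 and 4336 ± 361 under memantine, and its changes of -0.01 ± 0.05 and -0.02 ± 0.05 were smaller than their errors. The median change of the list was -0.01 under saline and -0.02 under memantine.

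The calls on this list were of single isoforms, between which shared reads were divided by estimate. Homer1 (NM_001284189, 1 of 4 rows), a postsynaptic scaffold, fell under saline from 1124 ± 242 to 724 ± 377 (p = 0.00955, adjusted p = 0.368), and was also lower in memantine sham than in saline sham, at 729 ± 399 (p = 0.00926, adjusted p = 0.554). Its rows summed gave 7606 ± 1027 and 7393 ± 1029 in the saline groups (p = 0.6).

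One of the 6 Mbp rows (NM_001025245), for myelin basic protein, rose under saline from 2037 ± 150 to 2192 ± 205 (p = 0.0459, adjusted p = 0.511). It was likewise higher in memantine sham, at 2197 ± 75.8, with 10 of 10 libraries above the saline sham mean (p = 0.0338, adjusted p = 0.636). The most abundant Mbp row (NM_001025259) was at 16860 ± 1864 against 16250 ± 2000 under saline, and changed by 0.05 ± 0.07. The pairs of contrasts in which Homer1, Mbp, Rora and Slco1a4 passed share a group and are not independent. Of the 12 calls named in these lists, 10 were lost on leaving out at least 1 library. Apart from sums by symbol, 4 were kept under every other setting that gave the row a value. These were the calls of Slc7a5, Carm1 and Homer1, rows that the filter leaves out. Summing lost the Homer1 calls (limma p = 0.6 under saline and 0.398 between drugs in sham mice). The call of Usp33 between drugs in sham mice was kept when its 2 rows were summed (limma unadjusted p = 0.0304). The calls of Mbp, Hdac3, Rora and Slco1a4 were lost with the astrocyte covariate. Those of Mbp and Hdac3 under saline were also lost with the striatal covariate, whose markers fell in the same contrast, and with only the compared groups in the fit, where the calls of Usp33 and of Slco1a4 between drugs were lost too. Over the other settings, sums by symbol apart, the unadjusted limma p ran from 0.0287 to 0.123 for Hdac3 and from 0.0276 to 0.247 for Mbp under saline. The Mbp rows summed gave p = 0.7 there. The call of Hdac3 was lost with the replicate block as well.

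Nr1d1, which encodes the clock repressor REV-ERBα and overlaps the end of Thra α2, gave no call in any of the 5 contrasts. Its means were 828 ± 145 in sham and 824 ± 126 in HF-HI under saline, and 928 ± 125 in sham and 833 ± 146 in HF-HI under memantine (SD, n = 10 each). Its change with impact was -0.003 ± 0.099 under saline and -0.16 ± 0.10 under memantine (SE, log2 count). Within groups it followed Thra α2, the row whose exon it overlaps, with r = 0.28 and Thra α1, which it does not overlap, with r = 0.59.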

How the data were processed

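RNA of mouse cortex was sequenced by the authors after ribosomal depletion with a stranded kit. Per the study's methods, reads were aligned to mm10 with STAR and counted per RefSeq transcript with eXpress, whereas the submitters' processing notes name HISAT2 and StringTie. The deposited values are log2-scale values from the variance-stabilizing transformation of DESeq2, applied by the authors to counts divided by size factors. The design text gives fewer libraries per group than the 10 that the labels list, and the labels were followed.

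The transformation was inverted from its floor (10.36, a count of 0). Values under a count of 5000, which were 92.4% of all, were 100% whole reads (tolerance 0.1) in every library, with size factors of 0.859 to 1.141 and summed counts of 13322404 to 17529644. The table holds only transcripts with a mean of at least 549.2 counts, so lower genes were not analyzed here. RefSeq gave a symbol for 6808 of 6831 transcripts. Positions and sequences came from GENCODE M21 on GRCm38, the same assembly as mm10.

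The test was limma 3.58.1 in R 4.3.3 (eBayes with a trend) on the deposited values, two-sided, with a term per group and 5 contrasts. Transcripts were counted at an unadjusted p under 0.05, the study's criterion, and at a Benjamini-Hochberg adjusted p under 0.1 over all 6831. Log2 count changes came from the same fit on log2(count + 1). Member values in the closing section, and those in the report with a covariate or a left-out library, are deposited-scale differences divided by the slope of the transformation at the mean count. Nothing in the labels states batches, and replicates are taken as separate mice. A few listed genes are not reported here and were left out of the lists. The members, gene lists and naming rule were chosen with earlier results of these data known. The rule named all member rows, Nr1d1, pathway transcripts with an unadjusted p under 0.05 in a two-group contrast, the most abundant transcript of each list, and the 5 transcripts most like the most abundant row of each member. Alternatives were other scalings, a filter, sums by symbol, weights, a block, covariates and left-out libraries.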

Additional observations from a re-analysis of the deposited data

Results flagged for a closer look

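Within groups of 10, 4 values stood apart from the other libraries of their group by more than the Dixon limit (gap over range above 0.466), of 28 groups examined over 7 measures. Chance flags about 1 in 20 groups. The Thra α1 row was at 1861 normalized counts in saline sham replicate 5, against 908 to 1225 in the other 9 libraries, and its share of the Thra counts there was 27.3%, against 15.4% to 20.4%. The same row was at 1697 in memantine sham replicate 4, against 992 to 1352. Thrb was at 1449 in memantine sham replicate 1, against 1662 to 1868.

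For 2 pathway transcripts the impact change under memantine differed from that under saline by the interaction term of limma at an unadjusted p under 0.05, and neither had an adjusted p under 0.1. Homer1 (NM_001284189) changed by -0.82 under saline and 0.22 under memantine (log2 count, p = 0.0294). Rora (NM_013646) changed by -0.19 and 0.62 (p = 0.0436). Each is 1 row of a gene with several.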

How the results depend on the processing

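Of 265 member changes under the other settings, 264 moved by less than 1 SD of the libraries. The exception reversed, since Thra α1 in memantine against saline HF-HI mice was 0.26 but -0.013 with the Thra rows summed, which by construction holds both rows. Dio2 kept its sign in both impact contrasts under the 11 other settings, from -0.24 to -0.22 under saline and from -0.22 to -0.21 under memantine (units of log2 count). The filter, the replicate block and the fit of only the groups compared cannot change a member's difference, nor can summing for a gene of 1 row. Hr has no value with the filter of a mean count of at least 1000.

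The counts of pathway transcripts at an unadjusted p under 0.05 were small and moved easily. Summing by symbol gave 2 genes in place of 4 transcripts under saline, 1 in place of 2 under memantine, 1 in place of 2 for the drug in HF-HI mice, 2 in place of 4 for the drug in sham mice, and 0 in place of 2 for the interaction. The astrocyte covariate gave 1 under saline, 1 under memantine, 0 for the drug in HF-HI mice and 1 for the interaction. The interaction also gave 1 with the striatal covariate and with a pseudocount of 1 or 32, and the filter, which tests fewer transcripts, gave 1 under memantine, 2 for the drug in sham mice and 1 for the interaction. Apart from the sums and the filter, the cause was not tested. With 1 library left out, the counts ran from 1 to 5 under saline, 0 to 3 under memantine, 0 to 4 and 2 to 5 for the drug in HF-HI and sham mice, and 0 to 4 for the interaction. They left the range of 1.5 times under saline without saline sham replicate 2 or saline HF-HI replicate 3, 4, 5 or 8, under memantine without memantine sham replicate 2, 4 or 8 or memantine HF-HI replicate 4, and for the drug in sham mice without saline sham replicate 5 or 7. For the drug in HF-HI mice this happened without saline HF-HI replicate 2, 3, 4, 7, 8 or 9 or memantine HF-HI replicate 5, 8 or 10. For the interaction it happened without saline sham replicate 5, 6, 9 or 10, saline HF-HI replicate 1, 2, 7 or 9, memantine sham replicate 2, 5, 6, 8 or 9, or memantine HF-HI replicate 1, 2, 4, 5, 8 or 10. At an adjusted p under 0.1 the lists gave 0 under every setting run.

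Over the whole table, 651 transcripts passed under saline at an unadjusted p under 0.05, but 425 with the filter and 422 with the striatal covariate. Under memantine 315 passed, but 178 with the filter and 513 with library weights. For the drug the counts were 267 in HF-HI mice and 513 in sham mice, but 155 and 332 with the filter, and for the interaction 255, but 138. At an adjusted p under 0.1 the 14 of the saline contrast became 0 with the filter or the striatal covariate, 3 with only the groups compared, 5 with the astrocyte covariate and 32 with library weights, and 21 genes passed after summing. With 1 library left out, these 14 ran from 2 (without saline HF-HI replicate 9) to 38 (without saline HF-HI replicate 1), and the 315 under memantine from 253 to 525 (without memantine sham replicate 9), the 1 left-out count at an unadjusted p that moved by over 1.5 times. The share of calls that were higher under memantine was 51.7%, but 62.2% with quantile normalization and 66.6% with median centering. The replicate numbers of the labels did not pair the samples, since deviations of same-numbered libraries correlated between -0.13 and 0.16 and 1 of 10 libraries in each pair of groups matched its own number best. With the number as a replicate block, 656 transcripts passed under saline and 314 under memantine. Every group holds every number, so the block cannot move a group difference, and the Dio2 changes of -0.23 and -0.22 were unchanged by construction. The pathway counts were 3 and 2 in those contrasts, 2 and 4 for the drug in HF-HI and sham mice, and 2 for the interaction.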
